A study of Mus musculus with 3 samples.

Results

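The integrin and laminin genes are 37 of the 21418 protein-coding genes annotated on mouse chromosomes 1 to 19. They were picked out by gene symbol, as the 26 genes for integrin subunits (18 alpha and 8 beta) and the 11 genes for laminin chains (5 alpha, 3 beta and 3 gamma). Binding of TFAP2A, a transcription factor of the AP-2 family that acts in the neural crest and in melanocytes, was mapped by ChIP-seq in melan-a cells, an immortalized melanocyte line derived from embryonic mouse skin. All libraries came from this line, of genotype Cdkn2a tm1RDp/tm1RDp, grown with the phorbol ester 12-O-tetradecanoylphorbol 13-acetate and cholera toxin and given no further treatment. There were 2 ChIP samples, made with the antibody AP-2alpha (3B5), and 1 input sample without antibody. The values are those of the 2 lists of ChIP peaks, so there was no second condition to test against, and values are given per replicate with their SD. A peak list measures occupancy and not expression, and a single immortalized line stands for melanocytes throughout.

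Integrins are cell surface receptors built from an alpha and a beta subunit, and they tie the actin or keratin cytoskeleton to the extracellular matrix. Laminins are secreted trimers of an alpha, a beta and a gamma chain that assemble into basement membranes. In skin, melanocytes sit on the basement membrane of the epidermis and the hair follicle, and integrins that bind laminin hold cells to it. The alpha subunit largely sets which ligand an integrin binds, and several alpha subunits share the same beta subunit.

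TFAP2 proteins bind as dimers to a GC-rich palindrome, searched here as GCCNNNGG on both strands. The sequences that follow are the 101 bases centred on the replicate 1 summit, the position of highest signal in a peak, and are given 5′ to 3′ on the plus strand of mm9. Capitals mark each match to the TFAP2 site, and overlapping matches run together. The first set is shown because it holds the 5 strongest shared peaks near start sites, 1 per gene.
Lama4 (chr10:38684949-38685049): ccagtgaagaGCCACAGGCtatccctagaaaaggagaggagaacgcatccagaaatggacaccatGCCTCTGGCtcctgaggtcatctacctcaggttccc
Lamb1 (chr12:31956490-31956590): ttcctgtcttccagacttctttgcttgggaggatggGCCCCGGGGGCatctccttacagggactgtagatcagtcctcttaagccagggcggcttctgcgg
Itga1 (chr13:115892366-115892466): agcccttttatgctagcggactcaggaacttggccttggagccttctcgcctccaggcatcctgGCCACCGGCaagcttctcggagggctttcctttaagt
Itga5 (chr15:103198144-103198244): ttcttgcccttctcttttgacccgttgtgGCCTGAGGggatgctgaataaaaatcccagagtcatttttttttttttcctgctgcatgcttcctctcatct
Lamc1 (chr1:155178891-155178991): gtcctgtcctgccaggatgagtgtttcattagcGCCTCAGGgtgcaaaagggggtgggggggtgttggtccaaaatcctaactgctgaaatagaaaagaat

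The second set is shown because it holds the 5 strongest shared peaks around any member, all away from start sites. Capitals again mark the TFAP2 site, and coordinates are mm9, plus strand.
Lama2 (chr10:27354602-27354702): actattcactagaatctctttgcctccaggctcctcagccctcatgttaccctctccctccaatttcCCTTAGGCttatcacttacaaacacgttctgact
Lamb1 (chr12:31995256-31995356): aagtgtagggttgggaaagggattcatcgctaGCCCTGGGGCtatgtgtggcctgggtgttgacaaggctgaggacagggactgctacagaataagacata
Itgb5 (chr16:33908481-33908581): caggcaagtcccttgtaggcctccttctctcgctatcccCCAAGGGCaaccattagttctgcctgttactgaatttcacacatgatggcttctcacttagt
Itgav (chr2:83522581-83522681): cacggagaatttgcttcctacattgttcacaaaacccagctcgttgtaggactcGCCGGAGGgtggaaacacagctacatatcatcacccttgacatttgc
Itga7 (chr10:128418257-128418357): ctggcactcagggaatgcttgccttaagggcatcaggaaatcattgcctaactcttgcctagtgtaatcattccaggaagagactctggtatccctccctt
The 101 bases at Itga7 hold no match to the TFAP2 site and 2 matches to the TEAD site GGAATG. The other 9 sequences each hold at least 1 TFAP2 match, and the Lama4 promoter holds 2 separate stretches of them. That at Itgb5 also holds 1 match to the M-box site TCATGTG.

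TFAP2A peaks lay in or around 32 of the 37 integrin and laminin genes, and near the start sites of 11. A peak was called shared when it overlapped a peak of the other replicate by at least 1 bp. Proximal means that both summits lay from 5 kb upstream to 1 kb downstream of an annotated transcription start site. By this rule 11 of the 37 members (29.7%, exact 95% binomial interval 15.9 to 47.0) had a proximal shared peak, beside 17.4% of all protein-coding genes. With each list cut to its upper 50% by enrichment, 2 members (5.41%) remained, beside 6.44% of all genes, so the order of the shares turned. The 11 were Itga1, Itga4, Itga5, Itga6, Itgb3, Itgb4, Itgb5, Itgb8, Lama4, Lamb1 and Lamc1. In replicate 1 alone 14 members (37.8%) had a proximal peak, beside 19% of all genes, and in replicate 2 alone 12 members (32.4%), beside 21.4%.

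In the wider window of the gene body and 50 kb on either side, 32 of the 37 members (86.5%, interval 71.2 to 95.5) held a shared peak, beside 59.9% of all genes. In each replicate alone 33 members held a peak in that window, beside 62.7% of all genes in replicate 1 and 66% in replicate 2. Integrin and laminin genes are long, with a median of 63.7 kb against 15.5 kb over all genes, and longer genes have wider windows. All genes were therefore cut by length into 5 classes of equal size. Among the 22 members in the class of the longest genes, 9 had a proximal and 21 a wide-window shared peak, beside 24.8% and 71.9% of all genes in that class. Of the 9 members in the next class, 1 had a proximal and 7 a wide-window shared peak, beside 22.1% and 67.2%. Of the 6 in the middle class, 1 and 4 did, beside 19% and 64.3%. Per 100 kb of window, the median was 1.53 shared peaks over members and 0.802 over all genes. The interval on the members' proximal share included the share of all genes. That on their wide-window share lay above the share of all genes. Within the classes of the longest, next and middle lengths, the members' median density was 1.47, 1.51 and 2.09 shared peaks per 100 kb, beside 0.619, 0.774 and 0.871 over all genes of the same class.

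**Figure D1:**
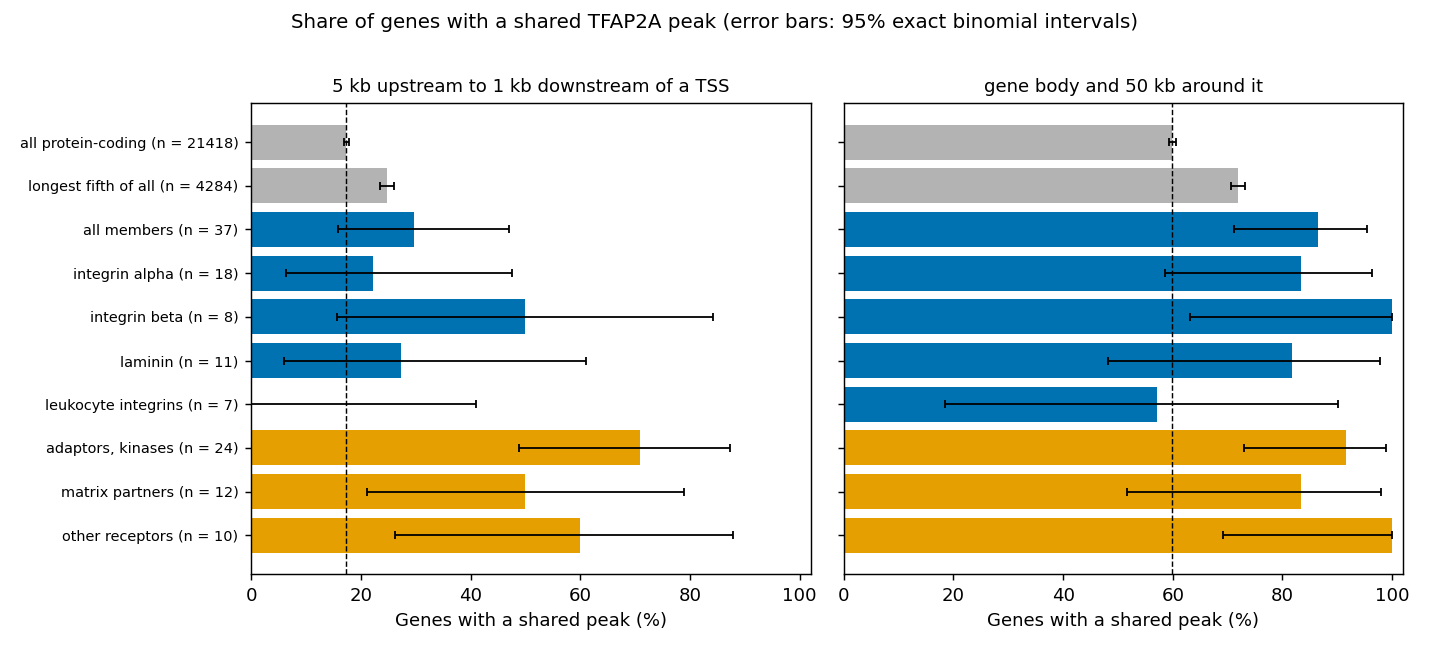
Share of genes (percent) with a shared TFAP2A peak, near a start site and in the gene body or 50 kb around it, for the members, their families, all protein-coding genes, partner lists and the longest genes, with exact 95% binomial intervals as error bars and a dashed line at the share of all genes. The members stand at 29.7% and 86.5%, beside 17.4% and 59.9% of all genes.

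The laminin alpha chains, which carry the domains that cell receptors bind, each had a shared peak in the wide window (5 of 5, interval 47.8 to 100%, beside 59.9% of all genes), and 1 of them, Lama4, had a proximal one (interval 0.505 to 71.6%, beside 17.4%). Their median density was 0.444 shared peaks per 100 kb, below the 0.802 of all genes. Lama2, the alpha chain of muscle and peripheral nerve basement membranes (chr10:26701094-27336748, minus strand), held the shared peak with the highest mean fold enrichment of all 15732 peak pairs on chromosomes 1 to 19. Fold enrichment is the signal over background as the peak caller gives it, and here it was 61.6 in replicate 1 and 56.4 in replicate 2 (59.0 ± 3.69, SD, n = 2). That peak lay 17904 bp upstream of the Lama2 start site, between genes, and Lama2 was the gene with the nearest start site. Lama2 had 1 other shared peak, in intron 56, of 5.01 and 7.44 (6.22 ± 1.72, SD, n = 2). With 2 shared peaks in the window of this long gene (636 kb, plus 50 kb on either side), Lama2 had 0.272 per 100 kb of window, below the median of all genes.

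Lama4, an alpha chain of blood vessel and other mesenchymal basement membranes (chr10:38685321-38829994, plus strand), had the strongest proximal peak of any member. Its enrichment was 11.2 and 11.8 (11.5 ± 0.439, SD, n = 2), 322 bp upstream of the gene, and the sequence above shows its 2 TFAP2 stretches. Lama4 held 3 more shared peaks within the gene, in introns 2, 8 and 9. That in intron 8 was the strongest, at 17.7 and 16.1 (16.9 ± 1.15, SD, n = 2), and that in intron 2 differed most between replicates, at 8.85 and 14.2 (11.5 ± 3.75, SD, n = 2).

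Lama3, the alpha chain of the laminin that anchors the epidermis, had a single shared peak, 13005 bp upstream of its start site, at 16.7 and 20.3 (18.5 ± 2.54, SD, n = 2). Lama5, a widespread alpha chain of adult basement membranes, had 2 weak shared peaks. That in intron 2 reached 3.71 and 3.21 (3.46 ± 0.352, SD, n = 2), and the other lay 238 bp from the start site of Rps21. Lama1, an alpha chain of early embryonic basement membranes, had 1 shared peak 45569 bp upstream, at 5.87 and 5.57 (5.72 ± 0.210, SD, n = 2), and the nearest start site was that of Lrrc30.

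Of the laminin beta chains only Lamb1, a beta chain of many laminins (chr12:31950099-32014509, plus strand), had a shared peak (1 of 3, interval 0.840 to 90.6%, which includes the 59.9% of all genes). Its strongest, in intron 23, reached 29.0 and 22.2 (25.6 ± 4.78, SD, n = 2) and ranked 138 among all pairs. The next, in intron 3, reached 11.2 and 9.60 (10.4 ± 1.16, SD, n = 2). It was proximal to a start site annotated inside the gene and lay 6441 bp from the 5′ end of Lamb1, so with the 5′ end alone Lamb1 was not called. A weaker proximal peak followed in intron 4, at 3.95 and 4.27 (4.11 ± 0.231, SD, n = 2). Lamb2, the beta chain of the neuromuscular junction and the kidney filter, had a peak in replicate 2 alone (3.02, 662 bp upstream). Lamb3, the beta chain of the epidermal laminin, had a peak in replicate 1 alone (5.33, 22003 bp from the nearest Lamb3 start site).

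Among the laminin gamma chains, Lamc1, found in most laminins, held 5 wide-window shared peaks, of which the proximal one lay in intron 1, 975 bp from the start site, at 4.94 and 5.99 (5.47 ± 0.743, SD, n = 2). Another in the same intron was stronger, at 10.9 and 10.2 (10.5 ± 0.482, SD, n = 2). Lamc3, a gamma chain of narrower distribution, had 2 shared peaks, in intron 23 at 5.90 and 5.52 (5.71 ± 0.268, SD, n = 2) and upstream at 4.29 and 4.06 (4.18 ± 0.162, SD, n = 2).

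**Figure D2:**
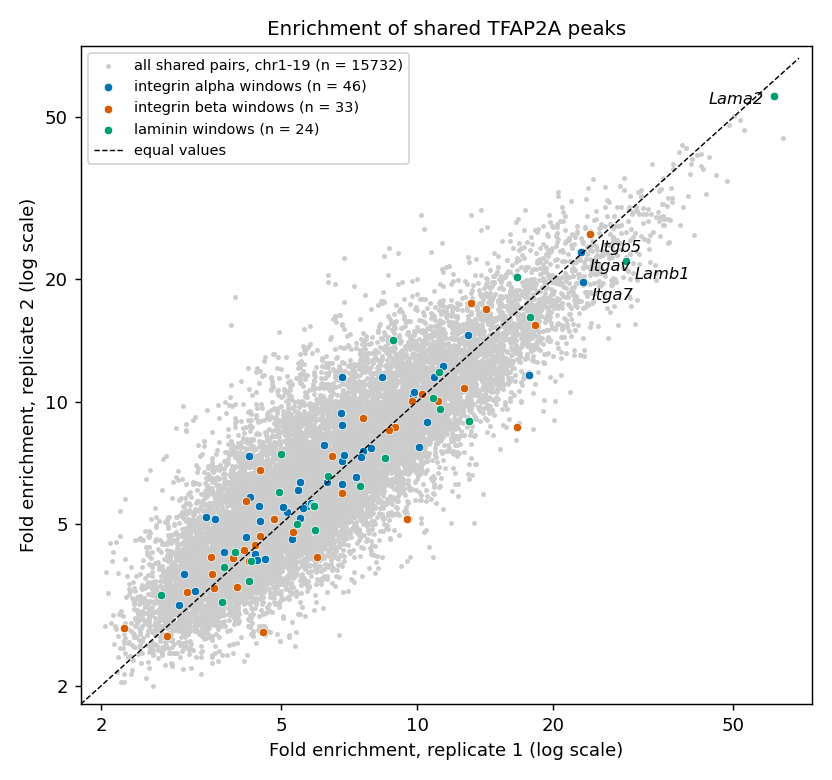
Fold enrichment in replicate 1 (x axis) and replicate 2 (y axis), both log scales, for the shared peaks in member windows, with the strongest labelled. The Lama2 upstream peak stands apart at 61.6 and 56.4, and all 103 pairs differ between replicates by less than 2-fold.

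Of the integrin alpha, integrin beta and laminin families, the beta subunits had the most shared peaks for the length of their windows. All 8 had a wide-window shared peak (interval 63.1 to 100%, beside 59.9% of all genes) and 4 a proximal one (interval 15.7 to 84.3%, which includes the 17.4% of all genes). They had a median of 2.46 shared peaks per 100 kb, beside 1.52 for alpha subunits, 1.26 for laminins and 0.802 over all genes. With peaks and window lengths summed over each family, the densities were 2.5 for beta subunits, 1.47 for alpha subunits, 0.941 for laminins and 1.06 over all genes, so the laminins stood below all genes by this measure. Within the laminins, the alpha chains (0.587) and beta chains (0.719) stood below all genes, and the gamma chains stood above. Itgb4, which pairs with the Itga6 product in the hemidesmosomes of epithelia, had the highest density of any member (4.49 per 100 kb), followed by Itgb3 (4.31), a subunit of vitronectin and fibrinogen receptors, and Itga2b (4.28). The 5 Itga2b peaks all lay outside the gene and nearest to the start sites of other genes. Itgb5, a partner of the Itgav product, and Itgb1, the partner of most alpha subunits, followed among the beta subunits at 2.73 and 2.71.

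Itgb5 held 6 shared peaks, all within the gene. The strongest, in intron 8, was 24.2 in replicate 1 and 25.8 in replicate 2 (25 ± 1.19, SD, n = 2), and ranked 157 among all pairs. Another, in intron 4, differed more between replicates, at 16.7 and 8.67 (12.7 ± 5.64, SD, n = 2). The proximal one, in intron 1 and 538 bp from a start site, was weak at 3.55 and 3.49 (3.52 ± 0.0456, SD, n = 2).

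Itgb1 had no proximal peak in either replicate but 3 strong ones farther off. They reached 18.2 and 15.4 (16.8 ± 1.95, SD, n = 2) at 18608 bp upstream. Both others lay in intron 1, at 14.2 and 16.9 (15.6 ± 1.90, SD, n = 2) and at 13.1 and 17.4 (15.3 ± 3.04, SD, n = 2). The fourth, in the untranslated part of exon 16, was weaker, at 4.48 and 6.80 (5.64 ± 1.64, SD, n = 2).

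Itgb3 held 7 shared peaks, the most of any member. The strongest lay 8321 bp upstream, at 12.7 and 10.8 (11.7 ± 1.32, SD, n = 2), and the next lay in intron 1, at 10.3 and 10.4 (10.3 ± 0.105, SD, n = 2). Its proximal peak, at 4.17 and 5.70 (4.94 ± 1.08, SD, n = 2), lay in intron 3, 4641 bp upstream of a start site annotated inside the gene. Itgb4 held 6. Its proximal peak, in intron 23, was the weakest, at 2.79 and 2.65 (2.72 ± 0.104, SD, n = 2), and the strongest lay 17915 bp upstream, at 11.1 and 10.0 (10.6 ± 0.774, SD, n = 2). The strongest peak and that 19210 bp upstream were classed as in an annotated promoter, though the nearest protein-coding start site was an Itgb4 one. The peak in intron 33 lay nearer to the start site of Galk1. As at Itgb3, the start site beside the proximal Itgb4 peak was an internal one.

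Itgb8, another partner of the Itgav product, had 2 shared peaks, in its first exon, 693 bp from a start site, with 4.24 and 4.06 (4.15 ± 0.127, SD, n = 2) and 9949 bp upstream with 9.75 and 10.1 (9.91 ± 0.215, SD, n = 2). Itgb6, an epithelial subunit, had 3, the strongest of which differed most, at 9.51 and 5.13 (7.32 ± 3.10, SD, n = 2), and none was proximal. Itgb2, the beta subunit of leukocyte integrins, had 3 weak shared peaks, 2 of them in intron 1, and the first of these reached 4.56 and 2.71 (3.64 ± 1.31, SD, n = 2). The replicate 1 summit of that pair lay 966 bp from the Itgb2 start site, inside the proximal window, and the replicate 2 summit outside it. The third lay 127 bp from the start site of Pttg1ip. Itgb7, a lymphocyte subunit, had 2 shared peaks, which lay 111 bp and 301 bp from the start sites of Rarg and Zfp740.

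**Figure D3:**
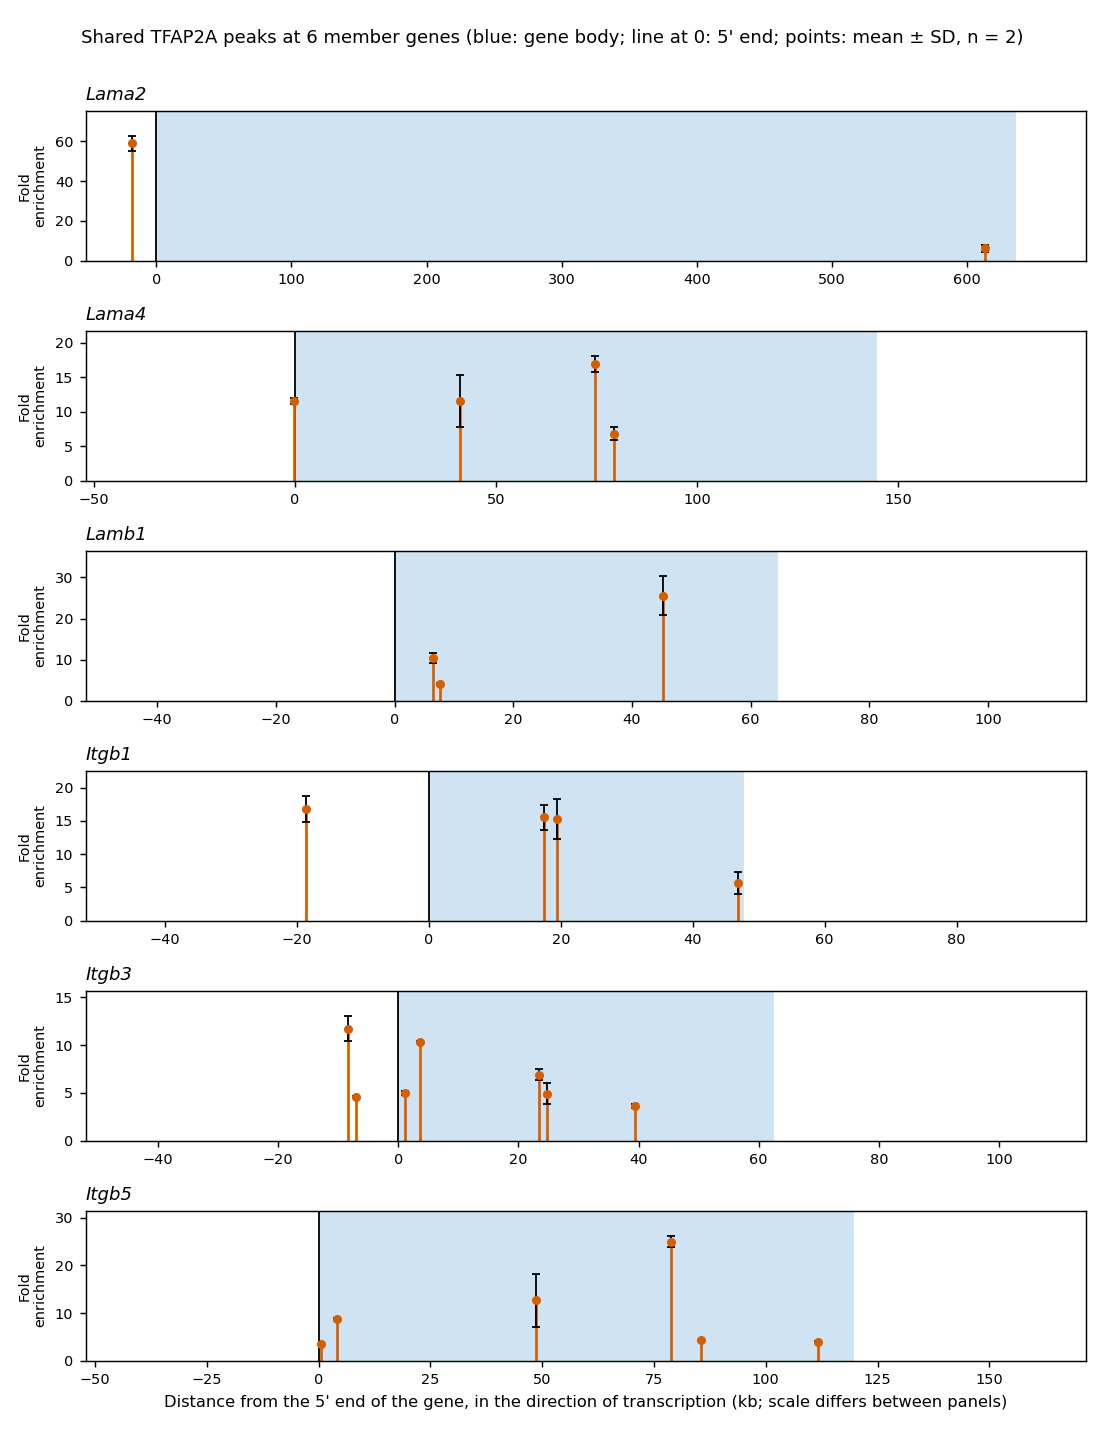
Shared TFAP2A peaks around 6 members, by distance (kb, scale differs between panels) from the 5′ end of the gene, whose body is shaded, with fold enrichment as the mean and SD of 2 replicates. The strongest peak of each gene, such as that of 59.0 upstream of Lama2, stands away from the 5′ end.

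Of the 3 alpha subunits that bind laminin, Itga6 alone had a proximal shared peak, beside 17.4% of all genes. It lay 2407 bp upstream at 5.27 and 4.60 (4.94 ± 0.478, SD, n = 2). A stronger one lay inside the gene, at 12.9 and 14.6 (13.8 ± 1.15, SD, n = 2). Itga7, the main laminin-binding alpha subunit of muscle, had a peak at 23.2 and 19.7 (21.5 ± 2.5, SD, n = 2) downstream of the gene, 47438 bp from its start site, and the nearest start site was that of Olfr9, 8598 bp away. Itga3, an alpha subunit of epidermis and kidney, had 2 shared peaks, both nearer to other genes (Samd14 and Dlx3), and a proximal peak in replicate 1 alone (3.08), which lay inside the gene, 1257 bp upstream of an internal start site.

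The 4 alpha subunits that bind collagen all had wide-window shared peaks (interval 39.8 to 100%, which includes the 59.9% of all genes), and Itga1 had the proximal one (1 of 4, beside 17.4% of all genes). It lay 244 bp upstream of the gene, at 5.52 and 6.35 (5.93 ± 0.587, SD, n = 2). Itga1 and Itga2 are neighbours and shared 2 peaks in their windows. The strongest peak in the pair, in Itga2 intron 28, was also among those that varied most, at 17.7 and 11.6 (14.7 ± 4.30, SD, n = 2). Its nearest start site was that of Mocs2, 19794 bp away. Itga10 had 3 shared peaks, of 5.01 to 5.72 on average, with nearest start sites of other genes. Itga11 had 1, at 9.84 and 10.5 (10.2 ± 0.504, SD, n = 2), nearest to Cln6.

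The 4 alpha subunits that recognise the RGD motif of fibronectin and vitronectin also all had wide-window shared peaks, with the same interval and the same 59.9% of all genes beside it. Itga5, the fibronectin receptor subunit, had 2 proximal ones. The first lay 1000 bp upstream, at 5.71 and 5.52 (5.61 ± 0.130, SD, n = 2), and the other in the first exon, at 4.39 and 4.22 (4.30 ± 0.120, SD, n = 2). Itgav, the shared partner of several beta subunits, had a peak at 23.0 and 23.3 (23.2 ± 0.164, SD, n = 2) that lay 41923 bp upstream and nearer to the start site of Zc3h15. Near its own start site Itgav had a peak in replicate 1 alone (3.51, 414 bp upstream). Itga8 had 5 shared peaks, none proximal, from 5.26 ± 0.152 to 10.1 ± 0.417 (SD, n = 2). It had 11 summits in its window in replicate 2 and 6 in replicate 1, the widest difference of any member. Itga2b, the platelet fibrinogen receptor subunit, had 5 shared peaks, all downstream of the gene and nearest to Grn or Slc25a39.

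Itga4 and Itga9, which form a subfamily of their own with ligands such as VCAM, each held 4 shared peaks. The proximal peak of Itga4 lay in its first exon, at 3.73 and 4.27 (4.0 ± 0.381, SD, n = 2). Those of Itga9 all lay in introns, at 4.31 ± 1.27 to 7.80 ± 1.37 (SD, n = 2). The 5 alpha subunits of leukocytes had no proximal peak in either replicate, and Itgad, Itgam and Itgax had no summit of any kind in their windows. The nearest shared summits lay 175 kb, 127 kb and 194 kb from them. Itgae had 3 and Itgal 2 wide-window shared peaks, all nearest to other genes' start sites. With Itgb2 and Itgb7, 0 of 7 leukocyte genes had a proximal shared peak (interval 0 to 41.0%), beside 11 of the other 30 members (36.7%, 19.9 to 56.1) and 17.4% of all genes, a share that the interval of the leukocyte genes includes. The grouping was made from textbook roles, and the difference was not tested.

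Replicate 2 had 1.16 times as many peaks as replicate 1 over chromosomes 1 to 19, and 1.02 times as many in member windows. There the 2 lists held 126 and 128 distinct peaks in member windows, of which 103 (81.7%) and 109 (85.2%) overlapped the other list, beside 87.0% and 76.0% over chromosomes 1 to 19. Each of the 103 shared peaks formed a mutual pair, the median distance between the summits was 23 bp, and 56 pairs were higher in replicate 2. Over member pairs, Pearson's r of log2 enrichment was 0.931 and Spearman's rho 0.909, against 0.870 and 0.846 over all pairs, given as a description. The 23 peaks of replicate 1 alone and the 19 of replicate 2 alone were weaker, with median enrichments of 3.64 and 5.45 beside 5.95 in both lists for the shared ones. The strongest of them was at Itga8 (8.32, replicate 2). Of the 37 members, 17 had the same number of summits in both replicates, 10 differed by 1 and 10 by 2 or more.

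**Figure D4:**
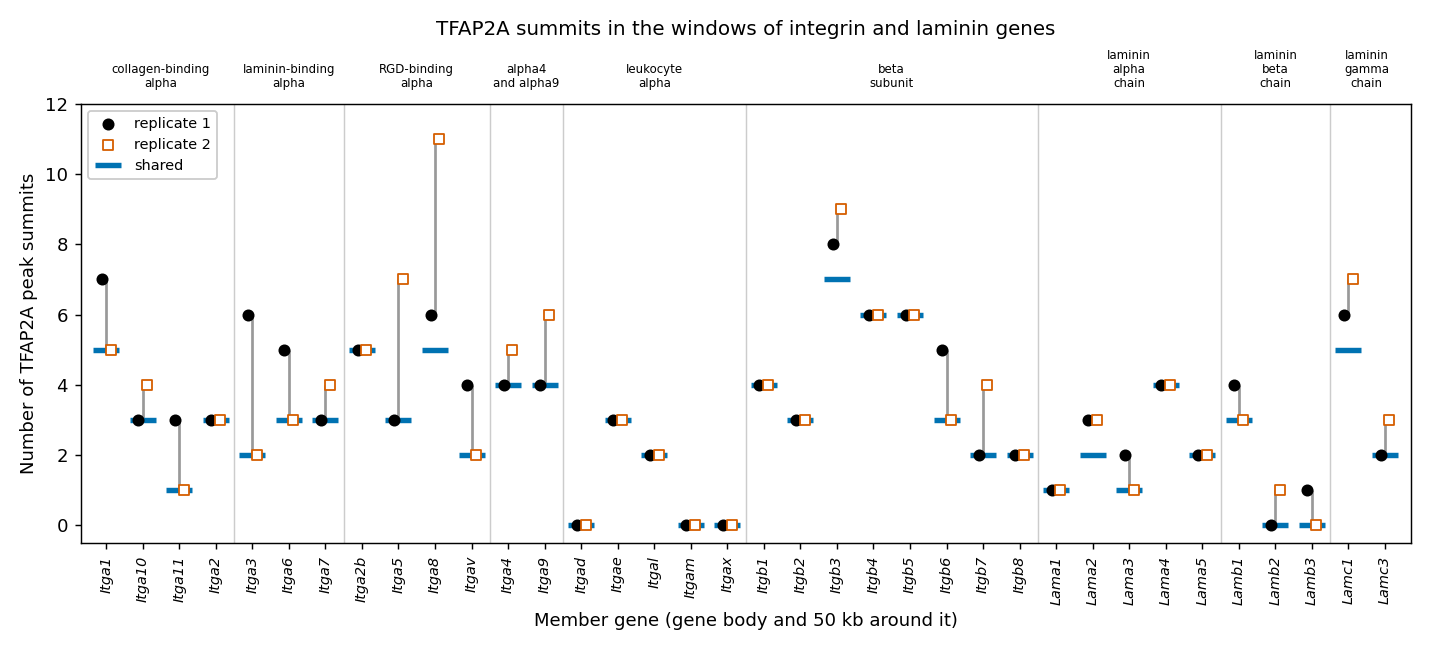
Number of TFAP2A peak summits (y axis) in the gene body and 50 kb around it for the members named in the text (x axis, by role), as circles for replicate 1, squares for replicate 2 and bars for shared peaks. Itgb3 has the most shared peaks (7), and Itgad, Itgam and Itgax have no summit in either replicate.

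Peaks proximal to a member's own start sites had a lower median enrichment than the other peaks in member windows. The 13 proximal peaks had a median enrichment of 4.94 and the 90 others 6.5, and the 10 strongest pairs, all at 15.3 or above, held no proximal peak. No such split was made over all genes. With each list cut to its upper 50% by enrichment, the members' proximal share fell from 29.7% to 5.41%. That of all genes fell from 17.4% to 6.44%. The wide-window shares fell from 86.5% to 64.9% for members and from 59.9% to 38.5% for all genes. The 90 others included 19 in an annotated promoter, since the split used the members' start sites alone and required both summits in the window. Among them were the peaks near the start sites of Rarg (8.59 ± 0.115, SD, n = 2) and Zfp740 (8.36 ± 1.07, SD, n = 2). The Itgb2 peak whose replicate 2 summit lay outside the window was another. By distance to a member's start site, the median enrichment was 4.23 within 1 kb (10 peaks), 4.98 from 1 to 5 kb (11), 6.83 from 5 to 20 kb (41), 6.97 from 20 to 50 kb (29) and 6.57 beyond (12). Over all 103 peaks the median was 5.93, beside 6.20 over all shared peaks, and 5 of them (4.85%) exceeded 20, beside 2.64% of all.

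In position, 44 of the 103 peaks lay in introns, 12 of them in intron 1, and 32 upstream and 19 downstream of a member. For 74 of the 103 the nearest protein-coding start site was a member's. By the location classes used for all peaks, 43.7% (exact 95% interval 33.9 to 53.8) were intronic, beside 37.4% of all shared peaks, and 22.3% (14.7 to 31.6) intergenic, beside 32.1%. A promoter of any gene held 31.1% (22.3 to 40.9), beside 28.7%. Of these classes, the share over all shared peaks lay outside the members' interval for intergenic peaks alone, and windows set around genes leave out gene-poor sequence by construction.

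In sequence, 61 of the 103 peaks (59.2%, interval 49.1 to 68.8) held the TFAP2 site GCCNNNGG no farther than 50 bp from the summit, beside 57.1% of all shared peaks. In flanks centred 400 bp away it lay in 13.6%, averaged over both sides, beside 15.3% over all. It was found in 10 of the 13 proximal peaks. For each of the 5 other sites searched, on both strands, the share over all shared peaks lay within the exact 95% interval of the members' share. The AP-1 site (TGAGTCA or TGACTCA) lay in 4.85% beside 6.36% of all shared peaks, and the TEAD site in 11.7% beside 10.5%. The SOX site (ACAAAGG or ACAATGG) lay in 6.80% beside 5.22%, the M-box TCATGTG in 1.94% beside 2.01%, and the E-box CACGTG in 0 of 103 (exact interval 0 to 3.52%), beside 1.79%. A match is a description of the letters in the window and not a measured site.

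The same rule was applied to genes whose products act with integrins and laminins, in 3 lists. Of 24 genes for adaptors and kinases of adhesions, 17 (70.8%, interval 48.9 to 87.4) had a proximal shared peak, beside 17.4% of all genes. The strongest were at Fermt2, a kindlin that activates integrins (18.3 ± 1.82, SD, n = 2), Parva, a parvin that links integrin complexes to actin (14.9 ± 3.45, SD, n = 2), Zyx, the focal adhesion protein zyxin (12.0 ± 2.79, SD, n = 2), and Fyn, a kinase of the Src family (10.7 ± 0.184, SD, n = 2).

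Beside the 17.4% of all genes, 6 of 12 genes for other matrix proteins had one (50.0%, interval 21.1 to 78.9). They were led by Sparc, which modulates contact of cells with matrix (14.9 ± 2.39, SD, n = 2), Hspg2, the core protein of perlecan (7.88 ± 0.286, SD, n = 2), Agrn, the proteoglycan agrin (4.51 ± 0.158, SD, n = 2), and Fras1, a protein of the epidermal basement membrane (3.40 ± 0.178, SD, n = 2). Of 10 genes for other laminin receptors and hemidesmosome parts, 6 had one (60.0%, interval 26.2 to 87.8), beside the same 17.4%. They were led by Plec, the cytoskeletal linker plectin (12.1 ± 0.909, SD, n = 2), Cd151, a tetraspanin that associates with laminin-binding integrins (6.20 ± 1.05, SD, n = 2), Dag1, the laminin receptor dystroglycan (5.64 ± 0.537, SD, n = 2), and Dst, the linker dystonin (5.22 ± 0.786, SD, n = 2). Over all 46 partner genes, 29 (63.0%, interval 47.5 to 76.8) had a proximal shared peak, beside 17.4% of all genes. Among the 37 members 11 did (29.7%, interval 15.9 to 47.0), and the intervals cover counting error over genes only. The median length of the partner genes was 58.7 kb. In the class of the longest genes, 24.8% of all genes had a proximal shared peak. Of 8 melanocyte marker genes, 5 (62.5%, interval 24.5 to 91.5) had one, beside 17.4% of all genes. They were Mitf, Tyrp1, Sox10, Mlana and Dct, and not Kit, Pmel and Tyr. The peak lists hold no expression value with which the label of the line could be checked.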

How the data were processed

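TFAP2A ChIP-seq was carried out in melan-a cells in 2 ChIP replicates, with 1 input sample. The submitters' processing notes name BWA (version not given in the sources used here), MACS 1.4.2 and mm9, without their roles, and the authors deposited 1 peak list per replicate. In the deposited lists, the authors give for each peak its position and summit, a fold enrichment (a ratio over background), the −log10 of its p-value and q-value, and a score. The deposited score and p-values were not used to test anything. The input sample was not analysed on its own. Read depth is unknown, since the deposited lists give no read counts. The lists hold 18528 and 21459 peaks.

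Coordinates were used as deposited, with the GENCODE vM1 annotation of mm9. Peaks of the replicates were paired by an overlap of at least 1 bp, as in the study's methods, and a gene was called when both summits lay in its window. Values of pairs came from mutual largest overlaps, as mean ± SD over 2 replicates. Exact Clopper-Pearson 95% intervals cover counting error over genes or peaks only. There was 1 ChIP group, so no test between groups was made. TFAP2 sites were searched within 50 bp of the replicate 1 summit. The 37 members entered all counts, 1 of them is not reported here by name, and roles came from textbook knowledge. Values are given for every proximal shared peak and the 10 pairs of highest mean, and for the top 4 genes of each partner list. Members and lists were chosen with earlier results of these data known, and other peaks named were chosen after their values were seen. Nothing in the labels says whether the replicates came from separate cultures, so the SD may be technical. Scripts were run with Python 3.11.15, pandas 2.3.3, scipy 1.17.1 and pysam 0.24.0 and were tested on simulated data. The alternatives tried are an overlap of 50%, stricter thresholds, other windows and other forms of the site.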

Additional observations from a re-analysis of the deposited data

How the results depend on the processing

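With either replicate alone, the members with a proximal peak numbered 12 to 14 against 11 shared, with Itga3, Itgav and Itgb2 added in replicate 1 and Lamb2 in replicate 2. Restricting each list to its upper 50% by enrichment left 2 members with a proximal shared peak (5.41% of members, beside 6.44% of all genes), Lama4 and Lamb1, and 49 shared peaks, with a median enrichment of 10.1. With the 5′ end of the gene model alone, 8 members were called (21.6%, beside 14.2% of all genes), without Itgb3, Itgb4 and Lamb1. A window of 10 kb around the gene body held 62 shared peaks in place of 103. The median enrichment of 5.93 was 5.37 to 5.76 with either replicate alone and 6.22 with a reciprocal overlap of 50%. The share of peaks with a TFAP2 site was 17.5% for GCCNNNGGC and 69.9% within 100 bp. No paired analysis was possible because there was a single ChIP group. The members with a wide-window peak numbered 23 to 33 over the alternatives, against 32 (62.2% to 89.2% of members, beside 31.8% to 73.2% of all genes). Unknown read depth limits the comparison of weak peaks between replicates.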
